A study of Arabidopsis thaliana with 21 samples.

Results

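The genes described here are 9 transcriptional regulators of light signalling in Arabidopsis thaliana: the PHYTOCHROME INTERACTING FACTOR genes PIF1, PIF3, PIF4, PIF5 and PIF7, their relatives PIL1 and HFR1, and the bZIP genes HY5 and HYH. They were taken by locus identifier, 9 of the 32548 genes of the deposited table, and all 9 were among the 23290 genes tested. Messenger RNA had been sequenced in 21 libraries, 3 from each of 7 genotypes. The mutants were gcn5, ada2b-c, spc, ada2a and 2 combinations, ada2b-cada2a and ada2b-cspc, here called double mutants, and the wild type was Col-0. GCN5 is a histone acetyltransferase of the SAGA coactivator complex, and ADA2A and ADA2B are adaptor proteins that can bind it. Alleles are not named in the labels, and which gene spc stands for is not stated there. All plants spent 12 days on plates and then stood in soil until day 30, at 22 °C in days of 16 h of light and 8 h of dark. The tissue is labelled seedlings, although the RNA came from 30-day-old plants. The hour of harvest is not given, and no label ties the 3 libraries of a genotype to separate plants or cultures, so a p-value reflects only how these samples spread, which may be technical.

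PIF proteins are basic helix-loop-helix transcription factors that favour elongation growth and delay greening, and light-activated phytochromes bind them and cause the breakdown of many, though not all, of them. HFR1 is a helix-loop-helix protein that binds PIFs and keeps them off DNA, and PIL1 is best known as an early shade-induced relative of the PIFs. HY5 and its close homologue HYH are bZIP factors that favour greening and flavonoid synthesis, and the COP1 ubiquitin ligase removes them in the dark. In rosette plants PIF4, PIF5 and PIF7 are known for petiole elongation in shade and warmth, and PIF4 and PIF5 transcripts follow the circadian clock.

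The 300 bases before the annotated start of 4 of these genes are shown, because PIF4 and PIF5 changed relative to each other and PIL1 and HFR1 were both higher in the double mutants than in ada2b-c. They were read from the RefSeq TAIR10.1 genome, 5′ to 3′ on the strand of the gene, in which all 9 loci were found. Capitals mark a G-box, CACGTG, the hexamer that PIF proteins and HY5 are known to bind.
PIF4, plus strand of chr2:17885801-17886100: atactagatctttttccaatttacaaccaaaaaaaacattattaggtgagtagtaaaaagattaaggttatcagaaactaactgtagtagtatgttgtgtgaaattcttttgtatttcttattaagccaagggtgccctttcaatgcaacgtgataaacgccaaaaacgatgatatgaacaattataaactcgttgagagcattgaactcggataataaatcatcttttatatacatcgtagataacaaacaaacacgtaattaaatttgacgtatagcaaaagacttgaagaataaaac
PIF5, minus strand of chr3:21830838-21831137: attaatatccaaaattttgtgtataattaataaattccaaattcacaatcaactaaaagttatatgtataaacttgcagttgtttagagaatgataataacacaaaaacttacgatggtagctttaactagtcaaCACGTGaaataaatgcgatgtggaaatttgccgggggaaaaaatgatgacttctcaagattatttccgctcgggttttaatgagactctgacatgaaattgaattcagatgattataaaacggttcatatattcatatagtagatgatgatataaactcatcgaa
PIL1, minus strand of chr2:19297859-19298158: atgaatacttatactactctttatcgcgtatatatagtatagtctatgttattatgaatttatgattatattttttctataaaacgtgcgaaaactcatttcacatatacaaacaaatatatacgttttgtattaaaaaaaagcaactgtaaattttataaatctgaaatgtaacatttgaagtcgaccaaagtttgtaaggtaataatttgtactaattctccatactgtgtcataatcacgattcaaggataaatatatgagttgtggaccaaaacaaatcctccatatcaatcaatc
HFR1, minus strand of chr1:467881-468180: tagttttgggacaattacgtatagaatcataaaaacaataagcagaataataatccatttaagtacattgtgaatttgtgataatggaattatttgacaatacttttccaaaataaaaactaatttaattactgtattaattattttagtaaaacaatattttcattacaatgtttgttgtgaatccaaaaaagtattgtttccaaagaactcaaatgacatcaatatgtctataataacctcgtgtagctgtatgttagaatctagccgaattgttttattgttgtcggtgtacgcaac
Among the 9 genes, PIF5 alone had a G-box in this window, 165 bases before its start, and 7.09% of the 27443 promoters of the same length had one. HY5 alone had the PIF-binding motif CACATG, read as CATGTG on the gene's strand 138 bases before its start and present in 13.1% of promoters, in a window that also holds part of a neighbouring gene. The core ACGT, which lies inside the G-box and occurred in 49.0% of promoters, was found in 7 of the 9 genes, all but PIF1 and PIF3. PIF4 had it 152, 45 and 30 bases before its start. Both strands were searched, and a match or its absence describes only the letters of this window.

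The deposited values, called signal below, were not whole numbers and followed an adjustment by the authors that is not described, so the depth behind a value is not known and counting error cannot be given. Column totals ran from 27411448 to 58700421. GCN5 stood at 260.2 to 290.1 signal in gcn5 and at 332 to 429 in Col-0, a change of -0.43 that did not pass (adjusted p = 0.123). ADA2A stood at 1.49 to 7.35 in ada2b-cada2a, at 18.0 to 57.4 in ada2a and at 42.3 to 80.5 in Col-0, and passed the test as lower in ada2b-cada2a (-4.11, adjusted p = 3.88e-07) but not in ada2a (-1.18, adjusted p = 0.0539). ADA2B, at 567 to 615 in ada2b-c and 341 to 737 in Col-0, was not lower in ada2b-c (0.32, adjusted p = 0.489). The alternative scales described below changed these calls: ADA2A passed as lower in ada2a with equal totals (-1.54, adjusted p = 0.017), and with the length slope as a covariate GCN5 passed as lower in gcn5 (-0.51, adjusted p = 0.0273) and ADA2B in ada2b-c (-2.27, adjusted p = 0.000166). ADA2A rose by 3.64 in ada2b-c (adjusted p = 1.25e-06), where it stood at 779 to 847. Summed signal of 7 floral organ markers was 80.8 to 93.8 in ada2b-c, 494 to 683 in gcn5, 2217 to 2781 in ada2a and spc, and 995 to 1282 in Col-0. Summed signal of 4 leaf markers was 159137 to 187288 in ada2b-c, 301133 to 398400 in gcn5 and 775767 to 955270 in Col-0, and that of 5 root markers was 4589 to 4766 in ada2b-c and 528 to 1001 in Col-0. In ada2b-cada2a and ada2b-cspc the floral sums were 263 to 286 and 169 to 193, and the leaf sums 213096 to 256494 and 182606 to 230276. Root sums were 8341 to 11280 in ada2b-cada2a, 6932 to 9379 in ada2b-cspc and 1425 to 3044 in gcn5, and those of ada2a and spc overlapped Col-0. Of these 5 root markers, 3 stayed under 1 in every ada2b-c library, against 0 in Col-0, so the higher sum is not a rise of the whole list. In whole plants, fewer cells of a type and less RNA per cell cannot be told apart.

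Libraries also deviated from the gene means along transcript length. The slope per doubling of length was 1.01 ± 0.05 in ada2b-c, 0.79 ± 0.13 in ada2b-cada2a, 0.86 ± 0.08 in ada2b-cspc, -0.15 ± 0.44 in gcn5, -1.11 ± 0.37 in spc, -1.0 ± 0.25 in ada2a and -0.40 ± 0.21 in Col-0 (SD, n = 3). The 9 transcripts run from 775 bases for HYH to 2704 bases for PIF3. For this reason 3 alternatives stand beside the results wherever they end a call or turn it: a correction of each library for transcript length and GC content, the slope as a covariate, and equal column totals. Equal totals moved the median change of all genes against Col-0 to 0.42 in ada2b-c, 0.35 in ada2b-cada2a, 0.39 in ada2b-cspc, 0.22 in gcn5, -0.33 in spc and -0.37 in ada2a, and the correction moved it to 0.17, 0.12 and 0.11 in ada2b-c, ada2b-cada2a and ada2b-cspc.

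Changes below are log2 differences of signal + 1, ± the SE of a limma fit over all 21 libraries, which understates the change of genes with low signal. That SE pools genotypes of unlike spread: the median SD of a gene was 0.115 in ada2b-c, 0.453 in gcn5, 0.426 in ada2a and 0.485 in spc. It may therefore be too small for gcn5, ada2a and spc. With only the groups compared in the fit, which leaves fewer libraries, 5429 genes and 4 of the 9 were called in gcn5, and 4443 genes in spc. The threshold for a call was an adjusted p under 0.05 over the 23290 genes. In ada2b-c, PIF3 was higher than in Col-0, and PIF4, PIF5, PIF7, PIL1, HFR1, HY5 and HYH were lower. That is 1 gene up and 7 down of 9, where 66% of all genes were called, 32.4% up and 33.6% down. In gcn5 PIF4, PIF7, PIL1, HFR1, HY5 and HYH, 6 of the 9, were lower and none was higher, where 34.3% of all genes were called, 15.6% up and 18.7% down. The double mutant ada2b-cada2a had 1 up and 7 down, with 62.6% of all genes called (30.4% up, 32.1% down). For ada2b-cspc the count was 1 up and 6 down, with 64.6% called (31.4% up, 33.3% down). In ada2a HFR1 was higher and HYH lower, with 39.7% of all genes called (19.8% up, 19.9% down). In spc HFR1 was higher and PIF4, PIF5 and PIF7 were lower, with 47.3% called (21.7% up, 25.7% down). The share of the 9 genes called in ada2a and spc was therefore below that of all genes or close to it. The median change of the 9 was -0.81 in ada2b-c, -1.37 in ada2b-cada2a, -1.05 in ada2b-cspc, -1.07 in gcn5, -0.56 in spc and -0.41 in ada2a, and the median of all genes lay between -0.06 and 0.

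These counts depend on the scale. With equal totals ada2b-c had 1 of the 9 up and 4 down (65.2% of all genes called), ada2b-cada2a 1 and 5 (60.5%), ada2b-cspc 1 and 4 (62.4%), gcn5 0 and 5 (33.9%), spc 1 and 6 (46.8%) and ada2a 1 and 3 (42.1%). Of all genes, 4907 were then higher and 2964 lower in gcn5, against 3630 and 4364 as deposited. In ada2b-c the split was 9591 and 5536, against 7535 and 7837 as deposited. In ada2a it was 2618 and 7145, against 4606 and 4629, and in spc 3478 and 7389, against 5047 and 5978. In ada2b-cada2a it was 8772 and 5264, against 7085 and 7485, and in ada2b-cspc 9157 and 5327, against 7307 and 7744. After the length and GC correction only HYH, as lower, was called in spc (37.2% of all genes called), and with the covariate none of the 9 was called there by limma (13.5% of all genes called).

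**Figure D1:**
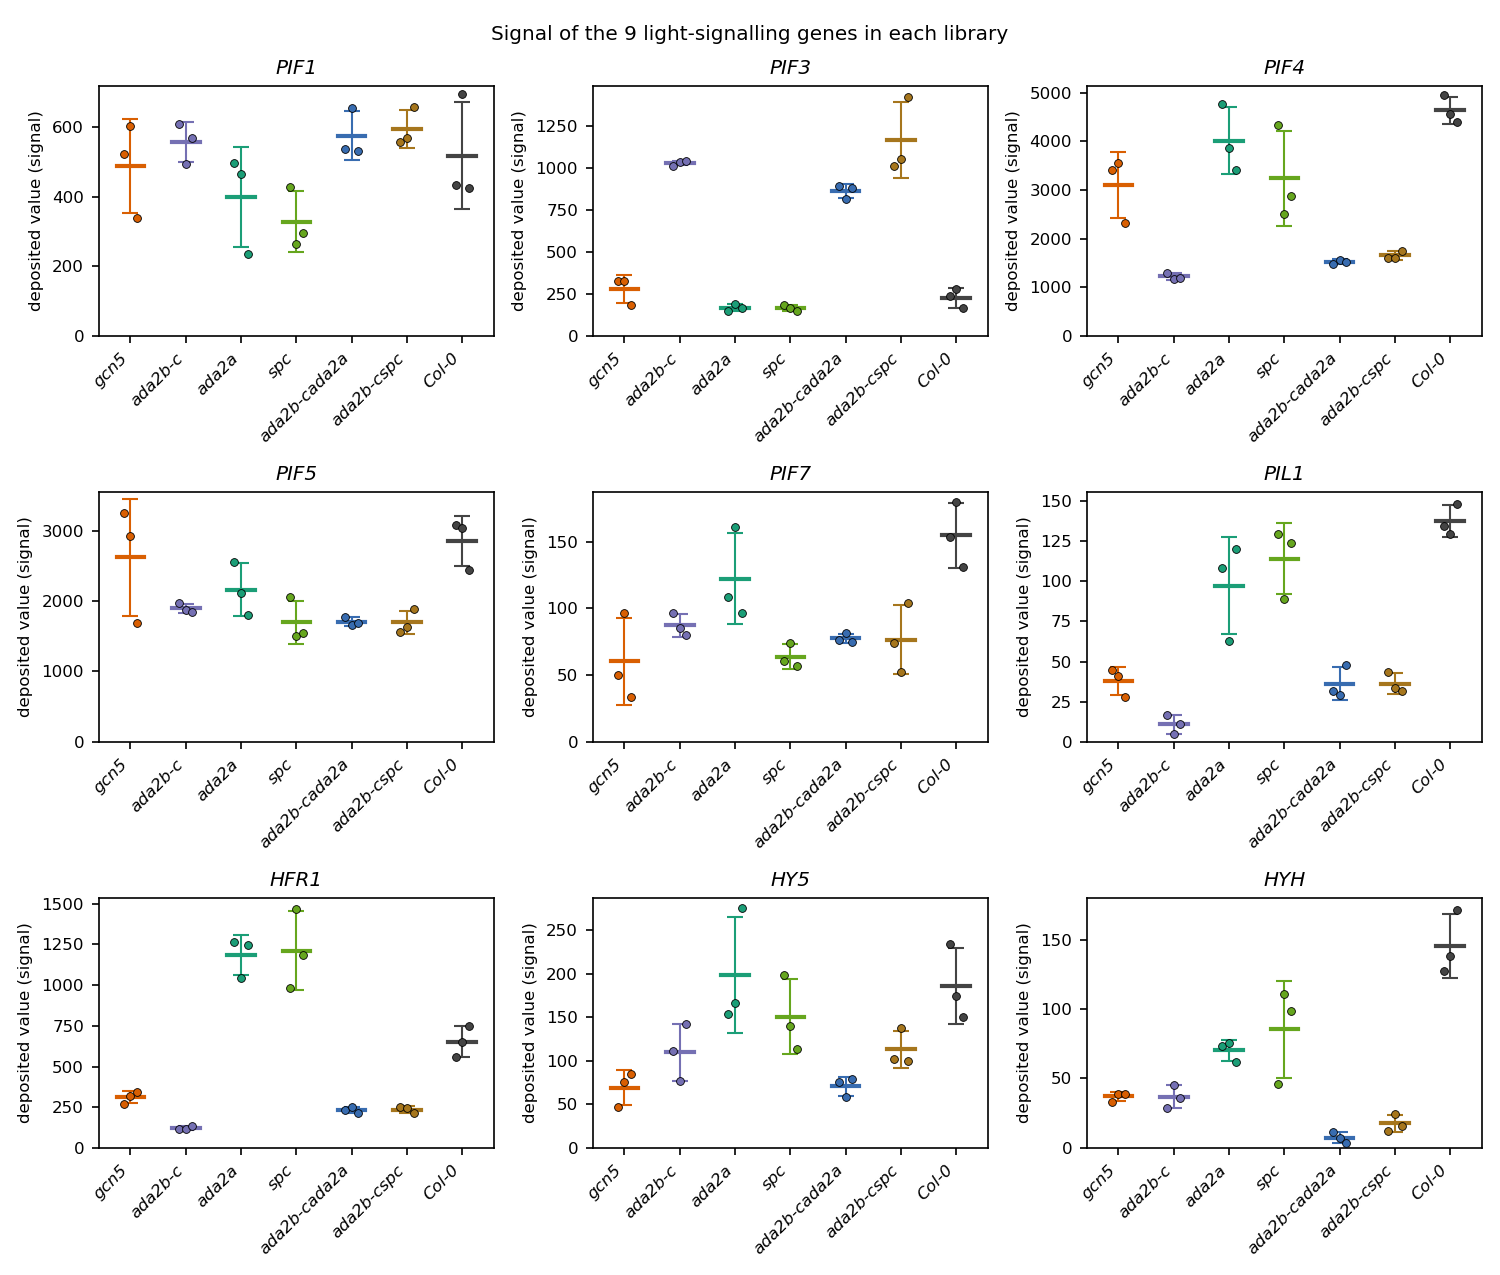
Signal of the 9 genes (y axis, each panel on its own linear scale from 0) in each library, by genotype (x axis), with points for libraries, thick bars for the mean and thin bars for 1 SD (n = 3). PIF3 stood at 814 or more in the 9 libraries of ada2b-c, ada2b-cada2a and ada2b-cspc and at 326 or less in the other 12, while HFR1 stood above every Col-0 library in ada2a and spc and below every Col-0 library in the 4 other mutants.

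PIF3 (AT1G09530, chr1:3075768-3079654, plus strand), a PIF known for its role in early greening, was the only one of the 9 that rose in a line carrying ada2b-c. Its signal was 1014, 1036 and 1041 in ada2b-c, 894, 814 and 883 in ada2b-cada2a, 1014, 1057 and 1425 in ada2b-cspc, and 235, 279.9 and 165 in Col-0. All 9 libraries of these 3 mutants lay far above the highest Col-0 library. PIF3 rose by 2.21 ± 0.23 in ada2b-c (adjusted p = 7.37e-08), by 1.96 in ada2b-cada2a (adjusted p = 5.61e-07) and by 2.37 in ada2b-cspc (adjusted p = 3.84e-08). The rise was 0.87, 0.77 and 1.13 in ada2b-c, ada2b-cada2a and ada2b-cspc after the length and GC correction and 1.30, 1.19 and 1.56 with the covariate, and the call was kept in each. PIF3 is the longest of the 9 transcripts. In gcn5 its signal was 324, 326 and 183, which overlaps Col-0, and the change of 0.28 did not pass (adjusted p = 0.389). Its changes of -0.41 in ada2a and -0.42 in spc did not pass either (adjusted p = 0.173 and 0.145), although both passed with equal totals, at -0.78 and -0.69, and that in spc also without Col-0 replicate 3 (-0.63).

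PIF4 (AT2G43010, chr2:17886101-17889087, plus strand), a central driver of elongation in warmth and shade, had the highest signal per kb of transcript of the 9 genes in Col-0. It had 1976 signal per kb there, followed by PIF5 with 1251 and HFR1 with 445. PIF4 signal was 1303, 1166 and 1199 in ada2b-c, 1477, 1569 and 1529.8 in ada2b-cada2a, 1609, 1604 and 1749 in ada2b-cspc, and 4951, 4565 and 4406 in Col-0. These 4 groups did not overlap. PIF4 fell by 1.92 in ada2b-c (SE 0.19, adjusted p = 3.19e-08), fell by 1.60 in ada2b-cada2a (adjusted p = 5.36e-07) and fell by 1.49 in ada2b-cspc (adjusted p = 1.19e-06). The correction gave -2.58, -2.17 and -2.07 for ada2b-c, ada2b-cada2a and ada2b-cspc, and the covariate -3.06, -2.56 and -2.50.

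In gcn5, PIF4 stood at 3415, 3566 and 2317, below every Col-0 library. It fell by 0.61 there (adjusted p = 0.0178), a call that did not hold with equal totals (-0.37), with only gcn5 and Col-0 in the fit (adjusted p = 0.0716), without Col-0 replicate 1 (-0.56, adjusted p = 0.0598) or without gcn5 replicate 3 (-0.41, adjusted p = 0.0928). In spc PIF4 stood at 4340.3, 2499 and 2878, again below every Col-0 library but widely spread. The change of -0.56 in spc (adjusted p = 0.0226) turned to 0.11 after the correction and 0.020 with the covariate, neither of which passed. It also did not pass with only spc and Col-0 in the fit (adjusted p = 0.109), without Col-0 replicate 1 (-0.51) or 2 (-0.57), or without spc replicate 2 (-0.39) or 3 (-0.49). In ada2a PIF4 stood at 4764, 3865 and 3418 and the change of -0.22 did not pass (adjusted p = 0.369), while the correction turned it to a rise of 0.40 that passed.

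PIF5 (AT3G59060, chr3:21827905-21830837, minus strand), the nearest relative of PIF4 and like it a promoter of elongation, changed less. Its signal was 1968, 1877 and 1844 in ada2b-c, 1773, 1662 and 1691 in ada2b-cada2a, 1563, 1637 and 1887 in ada2b-cspc, and 3082, 3040.4 and 2444 in Col-0. All 9 mutant libraries were below the lowest Col-0 library. PIF5 fell by 0.58 in ada2b-c (adjusted p = 0.0166), fell by 0.73 in ada2b-cada2a (adjusted p = 0.004) and fell by 0.75 in ada2b-cspc (adjusted p = 0.00326). With equal totals these were -0.04, -0.30 and -0.26, and none passed, whereas the correction gave -1.43, -1.50 and -1.55 and the covariate -1.83, -1.78 and -1.86, all called. The call in ada2b-c was also lost without Col-0 replicate 1 (-0.52, adjusted p = 0.0564) or 2 (-0.53, adjusted p = 0.0561). In spc PIF5 stood at 2053, 1500.3 and 1552 and fell by 0.75 (adjusted p = 0.0063), a call that ended with the correction (-0.07) and the covariate (-0.12). In gcn5 and ada2a its libraries overlapped those of Col-0 and the changes of -0.17 and -0.41 did not pass (adjusted p = 0.553 and 0.115). The change in gcn5 passed with the correction (-0.30, adjusted p = 0.0407) and the covariate (-0.39, adjusted p = 0.0053). That in ada2a passed with equal totals (-0.79), and at -0.41 with the replicate number as a block term in gcn5, ada2a and Col-0 (adjusted p = 0.0268).

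PIF4 and PIF5 transcripts are of nearly the same length, 2348 and 2282 bases, and could be set against each other within a library. The ratio was looked at after the values were seen and is given as a description. PIF4 signal over PIF5 signal was 0.66, 0.62 and 0.65 in ada2b-c, 0.83, 0.94 and 0.90 in ada2b-cada2a, 1.03, 0.98 and 0.93 in ada2b-cspc, and 1.61, 1.5 and 1.80 in Col-0. PIF5 therefore exceeded PIF4 in every ada2b-c and ada2b-cada2a library and in 2 of 3 ada2b-cspc libraries, and PIF4 exceeded PIF5 in all others. In gcn5 the ratio was 1.05, 1.22 and 1.38, below every Col-0 library. In ada2a it was 1.86, 1.83 and 1.89, above every Col-0 library, and in spc it was 2.11, 1.67 and 1.85, overlapping Col-0.

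The make-up of the summed signal per kb of the 5 PIF genes, also chosen after the values were seen, shows the same shift. PIF4 made up 25.5% ± 0.50 in ada2b-c, 31.9% ± 0.88 in ada2b-cada2a, 32.1% ± 1.69 in ada2b-cspc, 47.0% ± 2.84 in gcn5 and 54.4% ± 3.11 in Col-0 (SD, n = 3). PIF3 made up 18.7% ± 0.95 in ada2b-c and 2.28% ± 0.43 in Col-0. PIF1 made up 13.1% ± 0.94 in ada2b-c and 6.79% ± 1.75 in Col-0, and PIF5 40.6% ± 0.73 and 34.3% ± 1.43. For each of these genes the ada2b-c libraries lay outside the range of Col-0, while ada2b-cada2a and ada2b-cspc overlapped each other in the share of PIF4. Signal per kb keeps the length trend of a library, and PIF3 is the longest of the 5 transcripts. The part of that trend in these shares was not tested. In ada2a and spc PIF4 made up 57.6% ± 1.57 and 57.6% ± 2.96, overlapping Col-0.

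**Figure D2:**
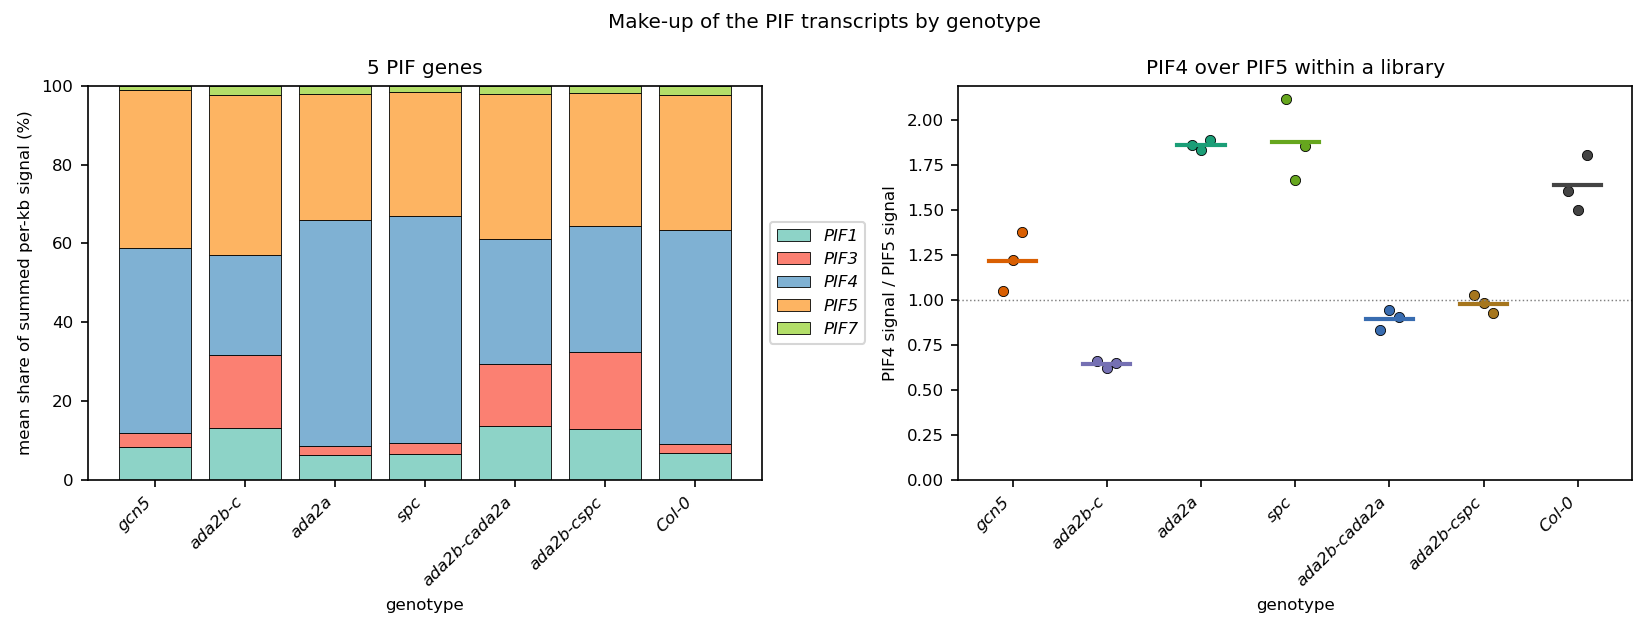
Left, mean share (y axis, percent) of PIF1, PIF3, PIF4, PIF5 and PIF7 in their summed signal per kb by genotype (x axis, n = 3). Right, PIF4 signal over PIF5 signal in each library (points) with the mean (bars) and a dotted line at 1, with ada2b-c between 0.62 and 0.66 and Col-0 between 1.5 and 1.80.

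PIF7 (AT5G61270, chr5:24638491-24640765, minus strand), the main PIF of the response to shade, had low signal throughout. It stood at 50.3, 97.0 and 33.7 in gcn5, at 60.7, 74.3 and 56.8 in spc, at 96.9, 85.6 and 80.0 in ada2b-c, and at 154, 179.7 and 131 in Col-0. All libraries of these mutants were below those of Col-0. PIF7 fell by 1.47 in gcn5 (adjusted p = 0.00208), though not with only these groups in the fit (adjusted p = 0.0577), and fell by 1.26 in spc (adjusted p = 0.00601), which the correction (-0.70) and the covariate (-0.83) ended. The change of -0.81 in ada2b-c (adjusted p = 0.0421) lay close to the threshold: it was lost without Col-0 replicate 1 (-0.81, adjusted p = 0.0775) or 2 (-0.70, adjusted p = 0.127), or without ada2b-c replicate 1 (-0.88, adjusted p = 0.0572), 2 (-0.79, adjusted p = 0.0864) or 3 (-0.75, adjusted p = 0.105), and with equal totals (-0.27), while the covariate gave a called -1.66. The changes of -0.97 in ada2b-cada2a (adjusted p = 0.0174) and -1.05 in ada2b-cspc (adjusted p = 0.0107) were lost with equal totals (-0.54 and -0.57), and the first also without Col-0 replicate 2 (-0.86, adjusted p = 0.0644) and the second without ada2b-cspc replicate 2 (-0.80, adjusted p = 0.0687). With the covariate they were -1.69 and -1.81, both called. The ada2a change of -0.36 did not pass (adjusted p = 0.41). PIF7 overlaps AT5G61260 on the other strand by 318 bases. In a search of both strands, 269 of its 1904 stretches of 50 bases occur in another transcript, the number that this overlap alone would give. They are therefore no separate sign of shared sequence. The signal of PIF7, like that of PIF1, which overlaps a gene by 334 bases, is less certain than that of the other genes.

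PIF1 (AT2G20180, chr2:8704024-8707009, minus strand), which restrains seed germination and greening in the dark, passed in no comparison. Its signal ran from 496 to 609 in ada2b-c, 533 to 657 in ada2b-cada2a, 558 to 658 in ada2b-cspc, 340.3 to 603 in gcn5, 264 to 428 in spc, 234 to 497 in ada2a and 424 to 696 in Col-0. Every neighbouring pair in the order of the means overlapped. The changes against Col-0 ran from -0.65 in spc (adjusted p = 0.0646) to 0.24 in ada2b-cspc (adjusted p = 0.48). The change in spc passed with equal totals (-0.92), without spc replicate 1 (-0.85) and with the replicate number as a block (adjusted p = 0.0458, or 0.0119 in gcn5, ada2a and Col-0 only). With the covariate PIF1 was lower in ada2b-c (-1.38), ada2b-cada2a (-1.10) and ada2b-cspc (-1.12), and all 3 passed, although the covariate cannot separate slope from genotype there. PIF1 overlaps AT2G20170 on the other strand by 334 bases, and whether the libraries kept the strand is not given in the sources used here, so reads of overlapping genes cannot be told apart.

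PIL1 (AT2G46970, chr2:19295431-19297858, minus strand) had the largest fall of the 9 in ada2b-c. Its signal was 16.9, 5.10 and 11.2 in ada2b-c, 44.6, 41.1 and 28.2 in gcn5, and 135, 129 and 148 in Col-0. The 3 groups were separate. PIL1 fell by 3.65 in ada2b-c (SE 0.38, adjusted p = 5.31e-08) and fell by 1.85 in gcn5 (adjusted p = 0.000659). It was 31.6, 29.2 and 48.1 in ada2b-cada2a and 43.8, 33.3 and 31.5 in ada2b-cspc, between ada2b-c and Col-0 in every library. PIL1 fell by 1.92 in ada2b-cada2a (adjusted p = 0.000174) and fell by 1.91 in ada2b-cspc (adjusted p = 0.000175) against Col-0, which the correction left at -0.94 and -0.93, both called. In ada2a it stood at 108, 62.9 and 120.3 and in spc at 129, 88.7 and 124, and neither change passed (-0.55 and -0.28, adjusted p = 0.255 and 0.549).

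HFR1 (AT1G02340, chr1:465616-467880, minus strand), the inhibitor that pairs with PIFs, was the only one of the 9 that was called in all 6 mutants. Its signal was 271, 318 and 342 in gcn5, 117, 115 and 135 in ada2b-c, 235, 252 and 212 in ada2b-cada2a, 250.4, 244 and 211 in ada2b-cspc, and 559, 654 and 746 in Col-0. All these mutant libraries were below those of Col-0. HFR1 fell by 1.07 in gcn5 (adjusted p = 0.000165), fell by 2.40 in ada2b-c (SE 0.19, adjusted p = 1.17e-09), fell by 1.48 in ada2b-cada2a (adjusted p = 1.25e-06) and fell by 1.46 in ada2b-cspc (adjusted p = 1.2e-06). After the correction ada2b-c stood at -1.02 and still passed, while ada2b-cada2a (-0.29) and ada2b-cspc (-0.28) did not, and gcn5 stood at -0.71 and passed. With the covariate ada2b-cada2a (-0.90) and ada2b-cspc (-0.85) passed. In ada2a HFR1 was 1266, 1047 and 1247 and in spc 983, 1468 and 1184, above every Col-0 library. It rose by 0.87 in ada2a (adjusted p = 0.0023) and by 0.88 in spc (adjusted p = 0.00135). The rise in ada2a was 0.41 after the correction, 0.57 with the covariate and 0.49 with equal totals, each still called, and that in spc, at 0.28 with the correction and 0.53 with the covariate, was not.

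HY5 (AT5G11260, chr5:3593335-3595073, minus strand) stood at 46.8, 75.4 and 85.2 in gcn5, at 111, 76.7 and 142 in ada2b-c, at 75.2, 58.6 and 78.6 in ada2b-cada2a, and at 234, 174 and 149.7 in Col-0. These mutant libraries were below those of Col-0, by a wide margin in gcn5 and ada2b-cada2a and narrowly in ada2b-c. HY5 fell by 1.43 in gcn5 (adjusted p = 0.0016), in every alternative. It fell by 1.37 in ada2b-cada2a (adjusted p = 0.00102), which the correction (-0.60) and the covariate (-0.92) ended. The change of -0.77 in ada2b-c (adjusted p = 0.0404) turned to 0.10 with the correction and ended with equal totals (-0.23), the covariate (-0.24), only these groups in the fit (adjusted p = 0.0569), and without Col-0 replicate 1 (-0.59) or 2 (-0.81) or ada2b-c replicate 1 (-0.80) or 2 (-0.54). In ada2b-cspc HY5 was 102, 137 and 99.4 and its change of -0.70 did not pass (adjusted p = 0.0612), though it did with only ada2b-cspc and Col-0 in the fit (adjusted p = 0.0375). In ada2a and spc its libraries overlapped those of Col-0, with changes of 0.07 and -0.31 that did not pass (adjusted p = 0.889 and 0.432).

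HYH (AT3G17609, chr3:6023844-6024710, plus strand), the partner and homologue of HY5, was lowest in the double mutants. Its signal was 11.1, 7.33 and 3.23 in ada2b-cada2a, 12.2, 24.7 and 16.1 in ada2b-cspc, 28.8, 45.4 and 36.0 in ada2b-c, and 127, 138 and 172 in Col-0. The 4 groups were separate. HYH fell by 4.27 in ada2b-cada2a (SE 0.40, adjusted p = 2.41e-08), fell by 3.02 in ada2b-cspc (adjusted p = 1.86e-06) and fell by 1.97 in ada2b-c (adjusted p = 0.000224). The changes in the double mutants were -2.94 and -1.62 after the correction and still called, whereas ada2b-c, at -0.34 with the correction and -1.06 with the covariate, was not. In gcn5 HYH was 33.3, 39.2 and 38.9 and fell by 1.94 (adjusted p = 0.000791), which passed in every alternative. In ada2a HYH was 73.6, 75.4 and 61.8, below every Col-0 library. Its change of -1.04 there (adjusted p = 0.0461) did not pass without any 1 of the 3 Col-0 libraries (-1.13, -1.07 and -0.91) or of the 3 ada2a libraries (-1.07, -1.09 and -0.95), without a filter on low signal (adjusted p = 0.0601), with a pseudocount of 0.1 (adjusted p = 0.0672) or with the covariate (-1.42). The correction gave a called -2.05. In spc HYH was 45.9, 111 and 98.9 and its change of -0.85 did not pass (adjusted p = 0.0855), although it passed with the correction (-1.94) and with equal totals (-1.12). HYH is the shortest of the 9 transcripts.

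**Figure D3:**
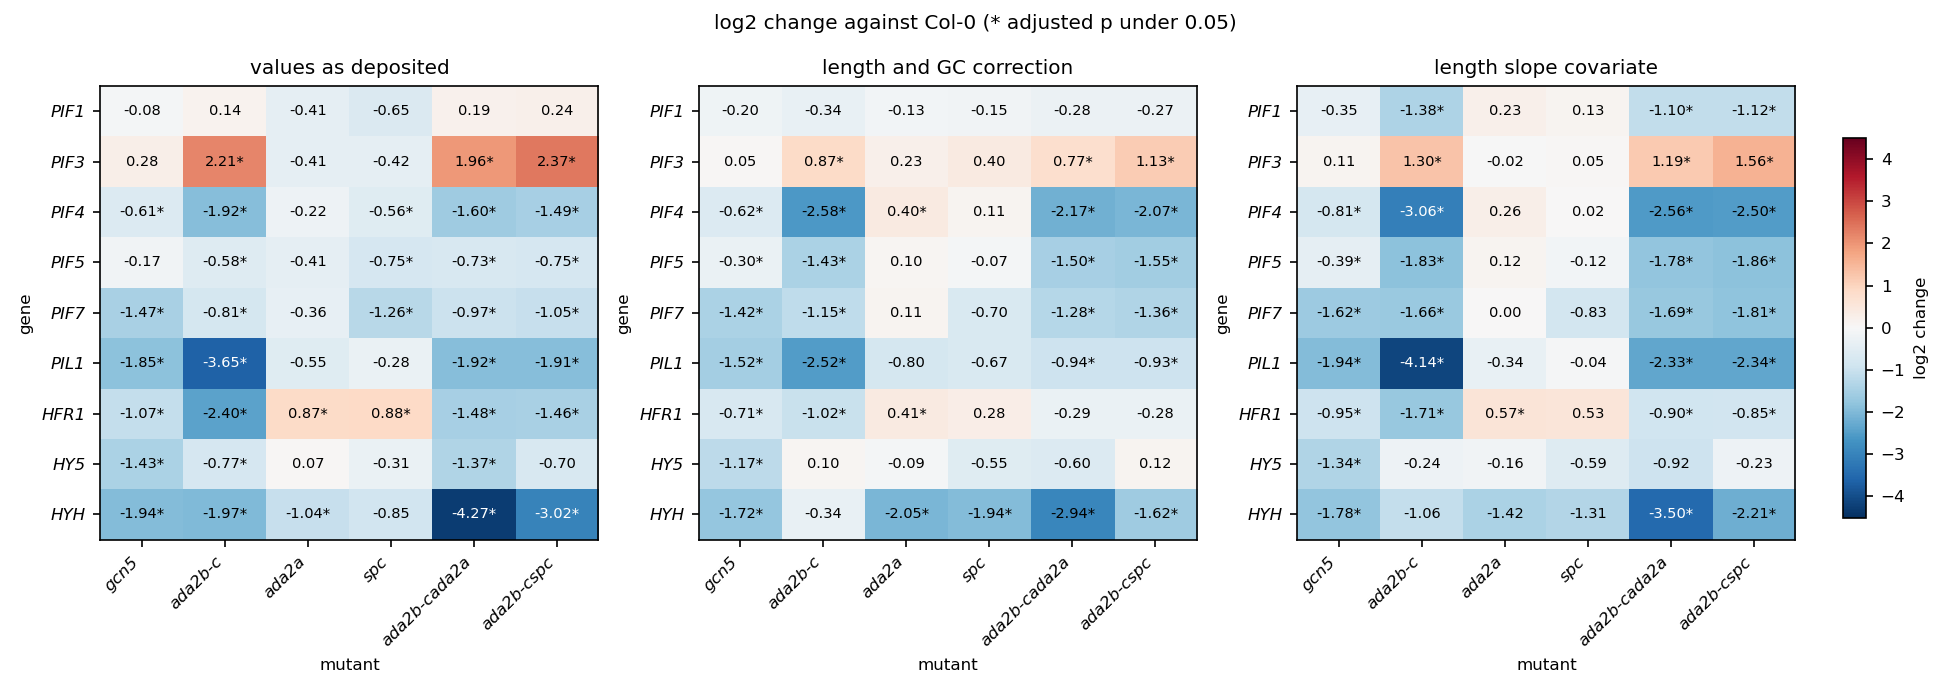
Change of the 9 genes (rows) in the 6 mutants (columns) against Col-0 as log2 differences, on a colour scale from blue (lower) to red (higher), with an asterisk at an adjusted p under 0.05. The 3 panels give the deposited values, the length and GC correction and the length slope as a covariate: PIF3 stays red in ada2b-c, ada2b-cada2a and ada2b-cspc in all 3, PIF1 in these mutants turns from 0.14, 0.19 and 0.24 to -1.38, -1.10 and -1.12 with the covariate, and PIF4 in spc turns from -0.56 to 0.11 and 0.020.

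Whether a second mutation alters the level seen in ada2b-c was asked by setting each double mutant against ada2b-c. In ada2b-cada2a, PIL1 and HFR1 were higher than in ada2b-c and HYH was lower, so that 3 of the 9 genes were called, where 15.7% of all genes were. PIL1 rose by 1.73 ± 0.38 (adjusted p = 0.00339) and HFR1 by 0.92 ± 0.19 (adjusted p = 0.00203), and every ada2b-cada2a library was above every ada2b-c library for both. HYH fell by 2.30 (adjusted p = 0.000522) to 3.23 to 11.1 in ada2b-cada2a, against 28.8 to 45.4 in ada2b-c. In ada2b-cspc, PIL1 rose by 1.74 ± 0.38 (adjusted p = 0.0047) and HFR1 by 0.94 ± 0.19 (adjusted p = 0.00277), 2 of the 9, where 9.18% of all genes were called. HYH was also lower in each ada2b-cspc library than in any ada2b-c library, but its change of -1.05 missed the threshold (adjusted p = 0.116), which the correction (-1.28) and the covariate (-1.15) brought it past. These 5 calls held in every alternative, including each library left out in turn.

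PIF4 was higher in every library of both double mutants than in any ada2b-c library, at 1477 or more in ada2b-cada2a and 1604 or more in ada2b-cspc, against 1303 or less in ada2b-c. The changes of 0.32 and 0.44 did not pass (adjusted p = 0.29 and 0.18). Both passed with the correction (0.41 and 0.51), with the covariate (0.50 and 0.56) and with only the groups compared in the fit (adjusted p = 0.00953 and 0.00758). PIF1, PIF3, PIF5, PIF7 and HY5 gave changes between -0.59 and 0.16, none of which passed. With only ada2b-cada2a and ada2b-c in the fit, 6 of the 9 were called, PIF3 (-0.26), PIF4 (0.32) and PIF5 (-0.15) in addition, and 38% of all genes were called in that fit.

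An interaction, the change of the double mutant against ada2b-c minus the change of the single mutant against Col-0, was called for PIL1 with ada2a (2.27 ± 0.53, adjusted p = 0.00978) and with spc (2.03 ± 0.53, adjusted p = 0.0214). PIL1 was higher in both double mutants than in ada2b-c, while its changes in ada2a and spc against Col-0 were below 0 and did not pass. The interaction with spc did not pass with the covariate (1.83, adjusted p = 0.0598), without ada2b-c replicate 2 (1.60, adjusted p = 0.0623), without spc replicate 2 (1.86, adjusted p = 0.0577) or without ada2b-cspc replicate 1 (1.89, adjusted p = 0.0576). PIF4 gave an interaction with spc of 0.99 ± 0.27 (adjusted p = 0.0251), which was 0.54 with the covariate, still called, and ended with the correction (0.40) and without Col-0 replicate 1 (0.95), ada2b-c replicate 2 (0.96) or 3 (0.98), spc replicate 2 (0.83) or 3 (0.93), or ada2b-cspc replicate 3 (0.95). Interactions were called for 13.3% of all genes with ada2a and for 10.7% with spc, and for 1 and 2 of the 9 genes. For HFR1 the interactions were 0.06 and 0.05 (SE 0.27 each, adjusted p = 0.907 and 0.899), and for HYH they were -1.27 and -0.20 (SE 0.57 each, adjusted p = 0.134 and 0.823). PIF5 gave 0.59 with spc (adjusted p = 0.163), which passed with the replicate number as a block term in gcn5, ada2a and Col-0 (adjusted p = 0.0426). With equal totals the interactions with ada2a split into 1901 higher and 763 lower over all genes, against 1842 and 1254 as deposited.

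The gcn5 and ada2b-c plants were also set against each other, since both proteins belong to one acetylation module. PIF4, PIL1 and HFR1 were higher in gcn5 than in ada2b-c and PIF3 was lower, 4 of 9 genes, where 58.3% of all genes were called. PIF3 stood at 183 to 326 in gcn5 and 1014 to 1041 in ada2b-c, a change of -1.94 (adjusted p = 1.19e-06). PIF4 was higher by 1.32 (adjusted p = 9.49e-06), PIL1 by 1.80 (adjusted p = 0.000406) and HFR1 by 1.33 (adjusted p = 7.08e-06), and HFR1 lost the call with the correction (0.31). PIF3 stood at -0.82 and PIL1 at 1.0 with the correction, and PIF3 at -1.19, PIF4 at 2.25 and HFR1 at 0.76 with the covariate, all called. HYH, with 33.3 to 39.2 in gcn5 and 28.8 to 45.4 in ada2b-c, overlapped fully, at a change of 0.03 (adjusted p = 0.967) that the correction turned to a called -1.39. HY5 (-0.66) and PIF7 (-0.66) were lower in gcn5 without passing (adjusted p = 0.0841 and 0.103), PIF5 (0.41) did not pass (adjusted p = 0.0919), and PIF1 (-0.22) passed only with the covariate, at 1.03. HY5 passed with equal totals (-0.96), the correction (-1.27) and without ada2b-c replicate 2 (-0.90). PIF7 passed with equal totals (-0.96), without gcn5 replicate 2 (-1.06) and with the block in gcn5, ada2a and Col-0 (adjusted p = 0.0482). PIF5 passed with the correction (1.12), the covariate (1.44), without gcn5 replicate 3 (0.70) and with that block (adjusted p = 0.0197). With equal totals the split over all genes was 5356 higher and 7732 lower, against 6939 and 6628 as deposited.

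Between spc and ada2a none of the 9 genes was called by limma, and 1.03% of all genes were. PIF7 had the largest change of the 9 by limma, -0.90 (adjusted p = 0.233), with 56.8 to 74.3 in spc and 96.7 to 161 in ada2a, and was the 1 gene of the 9 with an unadjusted p under 0.05 by limma. HFR1 differed by 0.02 ± 0.19 between spc and ada2a. Over all genes, equal totals gave 128 higher and 35 lower, against 153 and 88 as deposited.

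Of 12 genes known to be switched on by PIFs in shade, among them the homeobox gene ATHB2, the auxin gene IAA29 and the auxin synthesis gene YUC8, 11 fell and none rose in ada2b-c, with a median of -3.28. In gcn5 10 fell (median -1.24), and in ada2b-cada2a and ada2b-cspc 8 fell in each (medians -1.77 and -1.29). In ada2a 6 rose and none fell (median 0.58), and in spc 5 rose and 1, ST2A, fell (median 0.31), while the medians of all genes lay between -0.06 and 0. The count in ada2b-c was 11 lower after the length and GC correction and 10 with the covariate, with medians of -2.47 and -2.60. Of the 23290 genes, 6668 were lower in ada2b-c with the correction and 5922 with the covariate. With equal totals 10 fell in ada2b-c, 7 in ada2b-cada2a, 6 in ada2b-cspc and 8 in gcn5, HAT2 rose in ada2b-cspc, and 4 rose and 2 fell in each of spc and ada2a. IAA29 had 11.4 to 23.9 signal in ada2b-c, 149 to 297 in gcn5 and 1920 to 3116 in Col-0, and fell by 7.16 in ada2b-c (adjusted p = 1.72e-13) and fell by 3.66 in gcn5 (adjusted p = 1.56e-08). Set against ada2b-c, 9 of the 12 rose in ada2b-cada2a (median 1.20) and 8 in ada2b-cspc (median 0.97), and none fell, where 15.7% and 9.18% of all genes were called.

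Of 7 inhibitors that bind PIFs other than HFR1, the small proteins PAR1 and PAR2 and the 5 DELLA proteins, 6 fell in ada2b-c (median -2.07), 4 in gcn5 (-0.91), 4 in ada2b-cada2a (-1.0) and 6 in ada2b-cspc (-0.86), and none rose. The share of all genes that fell was 33.6%, 18.7%, 32.1% and 33.3% in these mutants, in the same order. PAR2 had 23.6 to 57.3 signal in ada2b-c, 1131 to 2315 in ada2a and 354 to 595 in Col-0, and fell by 3.63 in ada2b-c (adjusted p = 2.08e-07), which did not pass with the covariate (-1.08). The DELLA gene RGL3 had 33.6 to 48.0 in gcn5 and 115 to 191 in Col-0, and fell by 1.80 (adjusted p = 3.91e-05). In ada2a PAR1, PAR2 and RGA rose and GAI fell, and in spc PAR1 and PAR2 rose and GAI and RGL2 fell, where 39.7% and 47.3% of all genes were called. Against ada2b-c, ada2b-cada2a had 5 higher and ada2b-cspc 4, where 15.7% and 9.18% of all genes were called. With equal totals 3 fell in ada2b-cspc against Col-0 and 2 rose in it against ada2b-c, where 5327 and 1178 of 23216 genes did so. The correction and the covariate made PAR1 a called rise in gcn5 and both double mutants, and GAI was not called in ada2a or spc under either. The nearest other bHLH relatives moved in both directions: UNE10, also called PIF8, fell by 4.25 in ada2b-c (adjusted p = 3.23e-11) and fell by 2.88 in gcn5 (adjusted p = 4.27e-08), with 27.8 to 39.3 signal in ada2b-c, 71.4 to 110.6 in gcn5 and 616 to 707 in Col-0, while SPT rose by 1.1 in gcn5 (adjusted p = 0.00153).

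On the side of HY5, 10 BBX genes encode B-box proteins that assist or oppose it. In ada2b-c 9 fell and BBX20 rose (median -4.73), and in gcn5 6 fell and BBX20 rose (median -2.16). Among all genes 66% were called in ada2b-c and 34.3% in gcn5. BBX29 had 1.33 to 10.5 signal in ada2b-c and 818 to 914 in Col-0 (-7.28, adjusted p = 3.39e-10). BBX20 had 581 to 723 in ada2b-c, 700.3 to 1478 in gcn5 and 179 to 234 in Col-0, and rose by 1.64 in ada2b-c (adjusted p = 3.28e-05) and 2.29 in gcn5 (adjusted p = 2.4e-06). BBX30 was listed at 0 or near 0 in every library of ada2b-c and of both double mutants, and at 74.1 to 136 in Col-0, so no fold is given. Of 9 genes that HY5 is known to activate, such as the flavonoid gene CHS, all 9 fell in ada2b-c (median -2.93), 7 in gcn5 (-1.52), 8 in ada2b-cada2a (-2.96) and 9 in ada2b-cspc (-2.73), while in ada2a and in spc 1 rose and 1 fell in each. The share of all genes that fell was 33.6%, 18.7%, 32.1% and 33.3% in the first 4 of these mutants, in the same order. In ada2a 39.7% of all genes were called and in spc 47.3%, so the share of the 9 called there was lower. The medians include the fitted values of genes listed at 0 or near 0, which depend on the pseudocount. ELIP2, an early light-induced chlorophyll-binding protein, was listed at 0 or near 0 in gcn5 and both double mutants and at 35.8 to 41.0 in Col-0. Leaf marker genes fell in the same mutants, 3 of 4 in ada2b-c (median -2.58) and 4 of 4 in gcn5 (-1.15), and their part in the results for HY5, HYH and the genes HY5 activates was not tested.

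**Figure D4:**
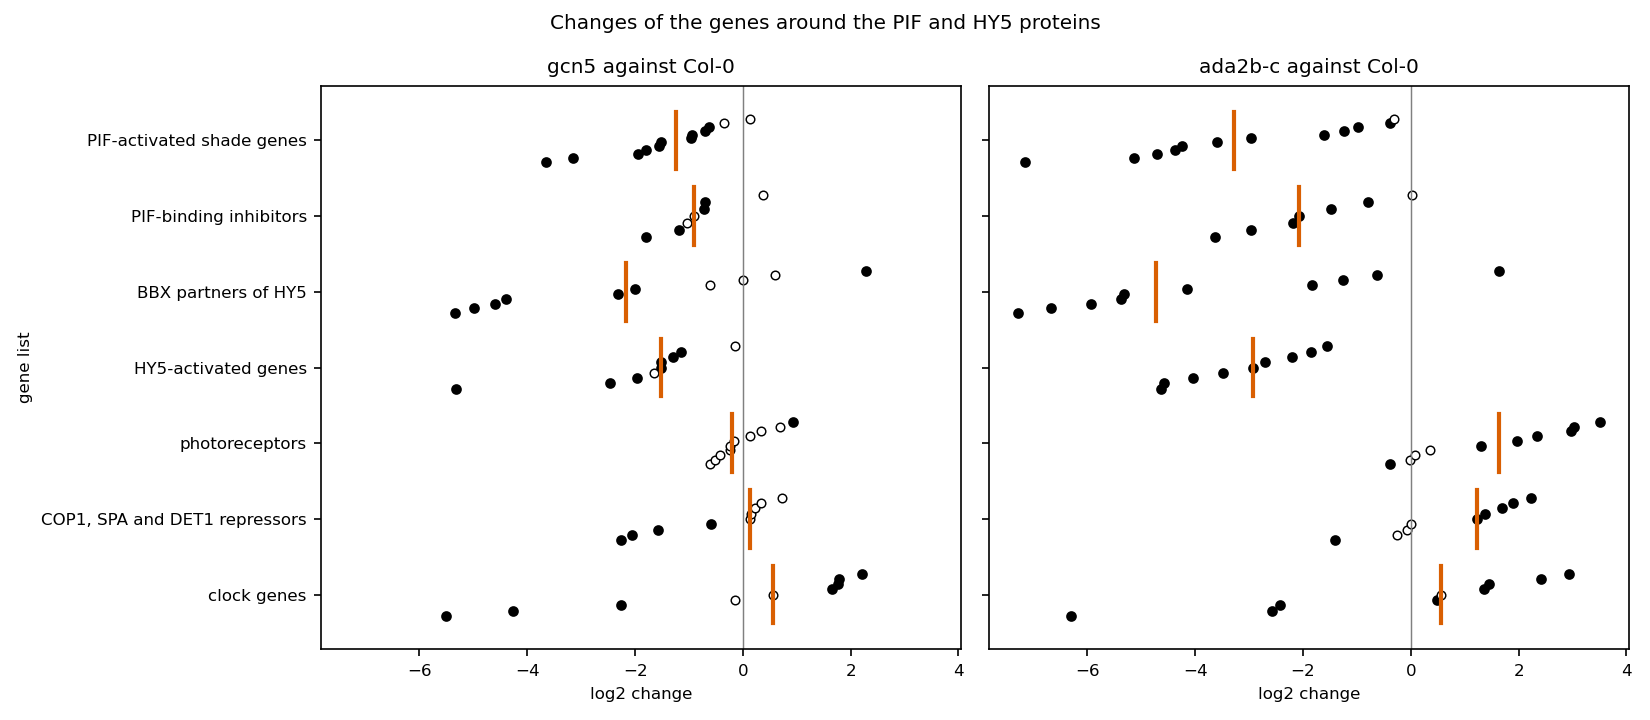
Change against Col-0 (x axis, log2) of each gene of 7 lists (y axis) in gcn5 (left) and ada2b-c (right), with filled points for genes called at an adjusted p under 0.05, open points for the others and orange bars for the median of a list. The median of the PIF-activated shade genes lies at -1.24 in gcn5 and -3.28 in ada2b-c, and the clock genes lie on both sides of 0 in both mutants.

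PIF4 and PIF5 transcripts are known to follow the clock, and clock genes differed between the genotypes as well. Of 9 clock genes, 5 rose and 3 fell in ada2b-c, 4 rose and 3 fell in gcn5, and 2 rose and 3 fell in ada2a. Among all genes 66% were called in ada2b-c, 34.3% in gcn5 and 39.7% in ada2a. CCA1, LHY and PRR9, which peak in the morning, were lower in all 6 mutants. PRR9 had 8.26 to 16.7 signal in ada2b-c, 12.7 to 32.0 in gcn5 and 849 to 1034 in Col-0. TOC1, which peaks in the evening, had 7812 to 7911 signal in gcn5, 8951 to 9138 in ada2b-c and 1381 to 2026 in Col-0, and rose by 2.20 in gcn5 (adjusted p = 7.31e-08). ELF3, a part of the evening complex, had 4305 to 4495 signal in ada2b-c and 509 to 617 in Col-0, a rise of 2.94 (adjusted p = 1.8e-06) that was 1.5 with the correction and not called with the covariate (0.44). With the covariate CCA1 and LHY were not called in ada2a, nor was LHY in spc. The count in ada2b-c was then 3 higher and 3 lower, where 10003 of the 23290 genes were called. The hour of harvest is not given, and the part of these differences in the results for PIF4 and PIF5 was not tested.

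Over the 7 genotype means, the gene most like HFR1 among all genes tested was AT1G27660 (Pearson r = 0.999 on the log2 scale, and 0.964 over the 21 libraries), and that most like PIF4 was KCS1, a gene of wax synthesis (0.996 and 0.976). PIL1 was followed closest by AT2G41480 (0.997 and 0.902) and the auxin gene IAA1 (0.994 and 0.961). PIF3 was followed by AT4G17610 (0.997 and 0.926) and AT3G61670 (0.997 and 0.973). PIF5 had a lower best value, 0.957 with SKL2, and 0.841 over the libraries. HY5 reached 0.980 with AT3G45680, which gave 0.666 over the libraries, and HYH 0.984 with AT1G10585 and 0.913. PIF7 reached 0.982 with AT2G19650, and 0.765 over the libraries, and PIF1 0.997 with PRMT4A, and 0.878. With 7 means and 23290 genes to search, all points share the libraries and their length trend.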

How the data were processed

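Messenger RNA of 30-day-old Arabidopsis thaliana plants was measured in 21 libraries, 3 of each of 7 genotypes, grouped by their labels. The deposited table holds 1 signal per gene and library, a value the authors adjusted in a way not given in the sources used here. The values are not whole numbers, the depth behind them is unknown, so counting error cannot be stated. The submitters' processing notes name bcl2fastq, HISAT2, edgeR and TAIR10, without versions or roles. A count test had been planned only for a table of counts, so limma 3.58.1 in R 4.3.3 was used, with a variance trend, on log2(signal + 1).

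Genes with a mean signal of at least 1 were tested (23290 of 32548). The fit held all 21 libraries and 1 mean per genotype. The Benjamini-Hochberg adjustment was made within each of 12 comparisons, with 0.05 as the threshold of a call. The fit was run on simulated data with the same spread in all genotypes, unlike these libraries. Its behaviour at unequal spread was therefore not tested. Tables and figures were made in Python 3.11.15 with pandas 2.3.3 and matplotlib 3.10.9. Transcript lengths, positions and promoters came from RefSeq TAIR10.1, where every gene tested was matched by locus.

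The alternatives were no filter, a pseudocount of 0.1, the replicate number as a block, equal column totals, a correction of each library for length and GC content by a spline of 5 df, fitted on 18559 genes with a mean of at least 30, every library's slope over length as a covariate, a fit of only the groups compared, and each library left out. Same-numbered libraries of Col-0, gcn5 and ada2a deviated together (correlations of 0.158 to 0.657 in each pair), and those of the other genotypes did not all do so. The labels do not say that numbers pair libraries. A block within these 3 genotypes was added after the data were seen.

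The 9 genes and all gene lists were chosen with earlier results of these data known. Named besides the 9 genes are the targeted genes, the called gene of the largest rise and of the largest fall of each list in gcn5 and ada2b-c, and the genes closest in pattern. YUC8, ATHB2, CHS, CCA1, LHY and the members spelled out beside small counts were named outside that rule. The ratio of PIF4 to PIF5 and the make-up of the PIF transcripts were chosen after the values were seen.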

Additional observations from a re-analysis of the deposited data

Results flagged for a closer look

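For PIL1 and PIF4 the effect of a second mutation differed between the ada2b-c background and the wild-type background, by a test of that difference. For PIL1 the effect of ada2a was 1.73 in ada2b-c and -0.55 in Col-0, a difference of 2.27 ± 0.53 (limma, adjusted p = 0.00978), and it passed in every alternative tried. For PIL1 the effect of spc was 1.74 in ada2b-c and -0.28 in Col-0, a difference of 2.03 ± 0.53 (adjusted p = 0.0214). For PIF4 the effect of spc was 0.44 in ada2b-c and -0.56 in Col-0, a difference of 0.99 ± 0.27 (adjusted p = 0.0251). Both differences with spc were lost in some alternatives. Single libraries were not tested against the rest of their group of 3.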

How the results depend on the processing

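Of 108 changes of the 9 genes, 47 were called, and 26 of these kept the call in every alternative. Of the 61 others, 27 changed sign without being called in at least 1 alternative, the fits with a library left out not counted. Calls turned round for HY5 in ada2b-c (0.10 with the correction) and PIF4 in spc (0.11 with the correction, 0.020 with the covariate), and changes that were not called before were called with the other sign for PIF4 in ada2a (0.40, correction), HYH in gcn5 against ada2b-c (-1.39, correction) and PIF1 with the covariate (-1.38 in ada2b-c, -1.10 in ada2b-cada2a, -1.12 in ada2b-cspc, 1.03 in gcn5 against ada2b-c). The cause was not tested. The replicate block ended no call of the 9 genes and added PIF1 in spc, and the block in gcn5, ada2a and Col-0 ended none and added 5.

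The number of the 9 genes called moved to 5 in ada2b-c, 4 in ada2a and 7 in spc with equal totals; to 1 in ada2a without a filter, with the pseudocount of 0.1 or with the covariate; and to 1 in spc with the correction and 0 with the covariate. It moved to 6 in ada2b-cada2a against ada2b-c with only the groups compared, to 4 in ada2b-cspc against ada2b-c with the correction or the covariate, and to 1 in the interaction with spc with the correction or the covariate. Only the larger moves are listed, here and for all genes below. Smaller ones included 4 in gcn5 with only the groups compared and 6 in gcn5 against ada2b-c with equal totals, the correction or the covariate. With the correction there were also 6 in ada2b-c, ada2b-cada2a and ada2b-cspc and 3 in ada2a. Over all genes, the covariate gave 10003 calls in ada2b-c, 9632 in ada2b-cada2a, 9959 in ada2b-cspc, 3146 in spc, 3745 in ada2a, 6965 and 4998 in ada2b-cada2a and ada2b-cspc against ada2b-c, 7277 in gcn5 against ada2b-c, 1611 in spc against ada2a and 4828 in the interaction with ada2a. Only the groups compared gave 4804 in ada2a, 4443 in spc, 8861 and 7363 in ada2b-cada2a and ada2b-cspc against ada2b-c, 0 in spc against ada2a and 5173 in the interaction with ada2a. The correction gave 5494 and 3600 in ada2b-cada2a and ada2b-cspc against ada2b-c, 642 in spc against ada2a and 4655 in the interaction with ada2a. No filter gave 464 in spc against ada2a. The replicate block gave 3888 in the interaction with spc, and the block in gcn5, ada2a and Col-0 gave 741 in spc against ada2a, 5735 in the interaction with ada2a and 6190 in that with spc.

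With each library left out in turn, the number of the 9 genes called ran from 5 to 8 in ada2b-c, 7 to 8 in ada2b-cada2a, 6 to 7 in ada2b-cspc, 5 to 6 in gcn5, 3 to 5 in spc, 4 to 5 in gcn5 against ada2b-c and 0 to 2 in the interaction with spc, was 1 each time in ada2a, and stayed at 3, 2, 0 and 1 in ada2b-cada2a against ada2b-c, ada2b-cspc against ada2b-c, spc against ada2a and the interaction with ada2a. The number of all genes called ran from 14042 to 14905 in ada2b-c, 12934 to 14022 in ada2b-cada2a, 13507 to 14573 in ada2b-cspc, 6215 to 8965 in gcn5, 6730 to 12684 in spc, 4600 to 10305 in ada2a, 2265 to 2534 in ada2b-cada2a against ada2b-c, 1234 to 1639 in ada2b-cspc against ada2b-c, 11407 to 13933 in gcn5 against ada2b-c, 82 to 564 in spc against ada2a, 1462 to 5223 in the interaction with ada2a and 1196 to 7041 in that with spc.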

Other observations

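Genes that act above the PIFs and HY5 were called in both directions, and most of these calls changed with the scale. On the deposited scale 66% of all genes were called in ada2b-c, 34.3% in gcn5, 47.3% in spc and 39.7% in ada2a. With the correction 14978 of the 23290 genes were called in ada2b-c, 9698 in gcn5, 8665 in spc and 7725 in ada2a. With the covariate these counts were 10003, 11252, 3146 and 3745. Of 10 photoreceptor genes, the phytochrome genes PHYA to PHYE and CRY2 rose in ada2b-c on the deposited scale and UVR8 fell (median 1.63). PHYD had 1761 to 1933 signal in ada2b-c and 93.4 to 243 in Col-0, a rise of 3.51 (adjusted p = 2.55e-07) that was 0.91 with the length and GC correction and not called with the covariate (1.21). UVR8 fell by 0.39 (adjusted p = 0.0181), and its change was 0.15 with equal totals and not called. It was -1.01 with the correction and -0.63 with the covariate, both called. After the correction the photoreceptors in ada2b-c gave 2 higher and 5 lower (median -0.46), and with the covariate 1 higher and 4 lower (median -0.46). In gcn5 PHYA, which senses far-red light, was higher by 0.93 (adjusted p = 0.0299) and no other photoreceptor was called. After the correction PHYA was not called there (0.20) and 6 others fell, and with the covariate PHYA was higher and 4 fell. In spc 7 fell and in ada2a 2 fell (medians -1.09 and -0.51). The correction left 1 higher and 3 lower in spc (median -0.26) and 2 higher and 1 lower in ada2a (median 0.05), and with the covariate the medians were -0.08 and 0.29.

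Of 9 genes of the COP1, SPA and DET1 repressors, which remove HY5 in the dark, 5 rose and SPA1 fell in ada2b-c (median 1.22), 4 fell in gcn5, 8 in spc and 6 in ada2a. The shares of all genes called there were 66%, 34.3%, 47.3% and 39.7%, so the share called in ada2b-c was close to that of all genes. The correction gave 4 higher and 5 lower in ada2b-c (median -0.46), 1 higher and 4 lower in gcn5, 3 lower in spc and 4 lower in ada2a, and the covariate left SPA1 alone, as lower, in spc and in ada2a. Of the 23290 genes, the correction called 14978 in ada2b-c, 9698 in gcn5, 8665 in spc and 7725 in ada2a. The covariate called 3146 in spc and 3745 in ada2a. CUL4 had 4218 to 4674 signal in ada2b-c and 643 to 1192 in Col-0, a difference of 2.24 (adjusted p = 1.89e-06) that the covariate reduced to 0.09, which was not called. SPA1 fell in ada2b-c by 1.40 (adjusted p = 0.000384) and in gcn5 by 2.26 (adjusted p = 6.97e-06), and was called as lower in both under each scale. Of 5 genes of phytochrome A import, FHY3 and FAR1 rose and FHY1, FHL and PKS1 fell in ada2b-c (median -0.40), with FAR1 at 2.96 (adjusted p = 7.44e-06) and FHL at -2.78 (adjusted p = 7.8e-06), neither of which was called with the covariate (1.26 and -0.50). FHL fell by 1.31 in gcn5 (adjusted p = 0.0197).

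Among the marker lists, all 7 floral organ genes fell in ada2b-c (median -4.67), 3 fell in gcn5, 3 rose in ada2a and 4 in spc. Of all genes, 33.6% fell in ada2b-c, 18.7% fell in gcn5, 19.8% rose in ada2a and 21.7% rose in spc. AG was listed at 0 or near 0 in every ada2b-c library, and SEP3 fell by 1.82 in gcn5 (adjusted p = 0.000244). Of the leaf markers, LHCB1.1 fell by 4.76 in ada2b-c (adjusted p = 1.53e-13) and by 2.17 in gcn5 (adjusted p = 6.3e-08). Of 4 root markers tested, PYK10 rose in ada2b-c by 2.79 (adjusted p = 4.01e-07), which the covariate reduced to an uncalled 0.56, and 2 rose in gcn5, NRT2.1 by 1.71 (adjusted p = 0.0156).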
